A study of Homo sapiens with 12 samples.

Results

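The genes that encode AP-1 subunits and the related factor ATF3 were examined for occupancy by SREBP2 and RORγ and for the histone mark H3K27ac in HCC70 cells, a cell line established from a triple-negative breast tumour. The members were FOS, FOSB, FOSL1 and FOSL2 of the FOS family, JUN, JUNB and JUND of the JUN family, and ATF3, which makes 8 of the 20098 protein-coding genes of the annotation. They were listed by name. Their regions were the peaks that overlapped a promoter window around any of their 34 annotated transcript starts (1000 bp before the start to 100 bp after it), and the peaks within the gene and 20 kb either side of it.

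Treatment lasted 24 h and was either vehicle or XY018, a compound that antagonises RORγ, a nuclear receptor, at 5 µM according to the labels. The methods of the study give a lower dose. Each of the 3 antibodies was used on 1 vehicle and 1 XY018 library, so each of the 6 groups held 1 library and no difference between treatments has a replicate check. All groups share 1 cell line, and the input libraries were not analysed here. H3K27ac regions were called at the promoters of all 4 epithelial marker genes under both treatments (CDH1, EPCAM, KRT8 and KRT18). The basal markers EGFR and CDH3 carried them as well, and the blood markers PTPRC and CD3E did not. The endothelial marker CDH5 had 12 and 12 fragments. ESR1 had 10 and 13 H3K27ac fragments at its promoter summit with vehicle and XY018, and PGR had no H3K27ac call. Of the other basal markers, KRT5 had 33 and 22 fragments and KRT17 8 and 18, KRT6A was called with XY018 alone (8) and TP63 with vehicle alone (16), and KRT14 had no call.

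AP-1 is a dimer of basic leucine zipper proteins that binds the sequence TGACTCA. JUN proteins pair with each other or with FOS proteins, whereas FOS proteins need a partner. FOS, FOSB, JUN, JUNB and ATF3 are immediate early or stress response genes, induced within minutes by kinase signalling, while JUND is expressed more steadily and FOSL1 is known for its high expression in basal-like breast cancer. SREBP2 is the factor that activates cholesterol synthesis genes, and H3K27ac marks active promoters and enhancers.

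The depth behind these values ranged from 3.65 to 6.16 tags per kb of mappable genome across the 6 libraries. The signal at a summit is given as the number of fragments that the authors' fold and p-value imply, and for comparison it was divided by the genome-wide background of its library, between 0.712 and 1.21 fragments. A promoter was called changed when its XY018 to vehicle ratio passed 1.5-fold in either direction. The intervals given are 95% intervals that cover counting error only.

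Several of the sites that carried SREBP2 with vehicle are shown first, because their sequences are what the later values refer to. Each is 201 bases around a summit in hg19, read 5′ to 3′ along the strand of the gene, with matches to the searched elements in capitals. The strongest SREBP2 site at FOS lay upstream of the gene at chr14:75744007-75744207, with a summit at -1424 bp from the start of the MANE transcript, and its capitals mark a GC box (GGGCGG on either strand):
FOS upstream site: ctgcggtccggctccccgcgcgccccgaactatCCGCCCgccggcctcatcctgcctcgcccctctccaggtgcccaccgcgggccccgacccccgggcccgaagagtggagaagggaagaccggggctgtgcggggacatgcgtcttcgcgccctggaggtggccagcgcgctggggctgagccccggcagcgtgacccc
A second FOS site, downstream of the gene and outside any protein-coding gene at chr14:75760981-75761181, was the 1 SREBP2 vehicle site of all members with a CArG box, the element bound by serum response factor, and it held 3 GC boxes too:
FOS downstream site: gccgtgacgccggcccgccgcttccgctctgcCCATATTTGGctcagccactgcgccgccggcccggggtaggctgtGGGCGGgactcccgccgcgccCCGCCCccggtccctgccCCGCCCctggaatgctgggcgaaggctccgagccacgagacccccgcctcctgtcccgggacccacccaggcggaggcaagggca
At JUNB, a site at chr19:12893786-12893986 within HOOK2, -8414 bp from the JUNB start, held 3 copies of the AP-1 site TGACTCA:
JUNB upstream site: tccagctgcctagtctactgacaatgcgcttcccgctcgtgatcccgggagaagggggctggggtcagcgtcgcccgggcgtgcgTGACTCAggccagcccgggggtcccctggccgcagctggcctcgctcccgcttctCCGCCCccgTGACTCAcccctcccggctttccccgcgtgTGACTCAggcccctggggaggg
The JUN promoter summit, upstream of the gene at chr1:59250048-59250248 on the minus strand, held 1 GC box:
JUN promoter: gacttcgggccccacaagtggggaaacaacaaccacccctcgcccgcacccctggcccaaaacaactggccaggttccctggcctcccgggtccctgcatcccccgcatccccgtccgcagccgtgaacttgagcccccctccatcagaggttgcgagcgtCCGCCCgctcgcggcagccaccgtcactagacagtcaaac
The JUND promoter is shown as the 250 bases before its start, chr19:18392433-18392682 on the minus strand, since it was the 1 member with a cyclic AMP response element (TGACGTCA) there. Its capitals mark that element, a CCAAT box and 5 GC boxes:
JUND promoter: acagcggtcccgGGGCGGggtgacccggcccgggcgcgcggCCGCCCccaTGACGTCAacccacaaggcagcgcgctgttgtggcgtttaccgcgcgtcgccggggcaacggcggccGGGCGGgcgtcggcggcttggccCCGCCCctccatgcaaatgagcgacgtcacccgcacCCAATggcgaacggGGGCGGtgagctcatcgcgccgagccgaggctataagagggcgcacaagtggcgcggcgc
The most distant strong site of ATF3, at chr1:212731757-212731957 upstream of all its annotated starts, held 2 GC boxes:
ATF3 distal site: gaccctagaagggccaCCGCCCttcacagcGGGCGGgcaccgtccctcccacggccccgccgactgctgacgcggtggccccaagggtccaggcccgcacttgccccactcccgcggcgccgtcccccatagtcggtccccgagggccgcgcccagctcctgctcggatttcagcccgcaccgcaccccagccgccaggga

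Nearly every AP-1 promoter window was overlapped by a called region in every library. A summit lay inside the window at fewer members: 5 for SREBP2 and 5 for H3K27ac under each treatment. For RORγ these were 5 with vehicle and 4 with XY018. SREBP2 regions were called at 8 of 8 member promoters with vehicle and at 8 of 8 with XY018, where 70.6% and 62.7% of all protein-coding genes had one. RORγ regions were called at 7 of 8 promoters under each treatment, against 62.6% and 61.5% of all genes. H3K27ac regions were called at 8 of 8 promoters under each treatment, against 66.8% and 68.0%. With 8 genes, a count of 8 has an exact binomial interval that starts at 63.1%, and a count of 7 has one from 47.3 to 99.7%. The background shares lie inside them, apart from the 62.7% of SREBP2 with XY018, just below 63.1%. The members were listed by name and not drawn at random, so these intervals do not test the counts against the shares. At q of at most 1e-05 the SREBP2 count with XY018 was 5 of 8.

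JUN, which encodes the core partner of the AP-1 dimer, was the member without a RORγ call at its promoter. Both of its RORγ regions near the start lay downstream of the promoter window, at 650 bp in the 5′ UTR and 1454 bp in the coding exon with vehicle, with 20 and 33 fragments. With XY018 they held 12 and 22 fragments. The weakest region in either RORγ list held 3 fragments, and a weaker signal at the JUN promoter would not have been listed.

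**Figure D1:**
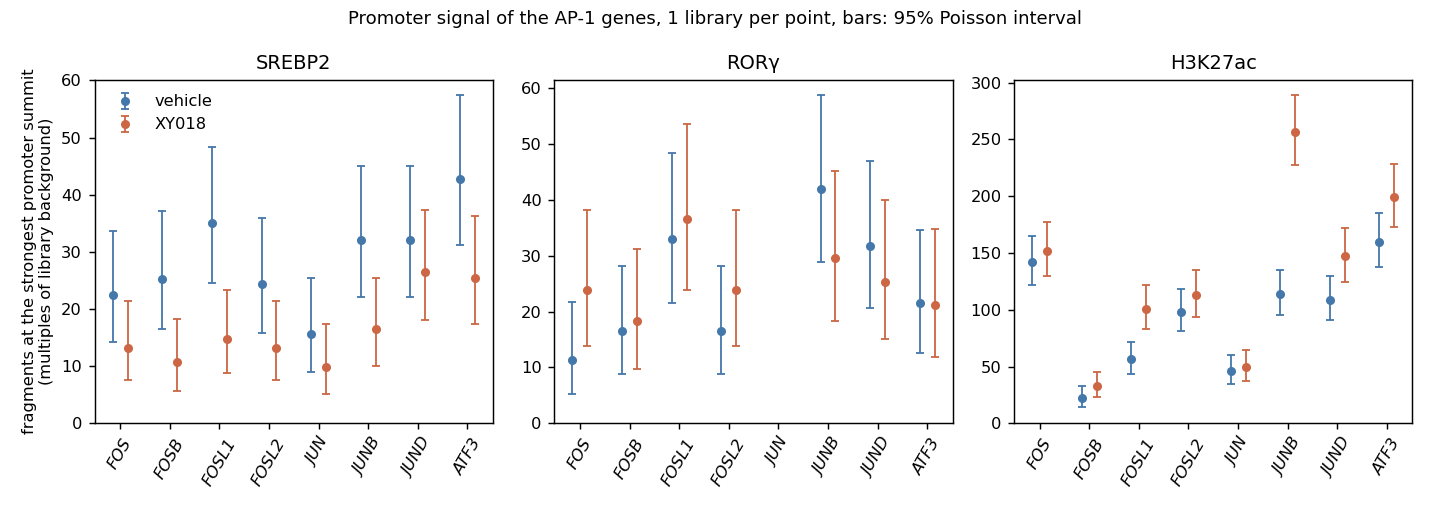
Fragments at the strongest promoter summit of each AP-1 gene (y axis, in multiples of the genome-wide background of the library) for SREBP2, RORγ and H3K27ac, in vehicle (blue) and XY018 (orange) libraries, 1 library per point with exact Poisson 95% intervals. All 8 SREBP2 points are lower with XY018, ATF3 has the highest SREBP2 vehicle value (42.8), and JUNB with XY018 has the highest H3K27ac value (257).

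Among the FOS family, SREBP2 signal at promoters was moderate with vehicle and lower with XY018. FOS, the prototype immediate early gene (chr14:75745529-75748933), had 23 SREBP2 fragments at a summit in its intron with vehicle and 16 with XY018, where the region was split into 2, a ratio of 0.589 (0.291 to 1.16). FOSB (chr19:45971253-45978437), whose starts include downstream alternatives, had 26 and 12 fragments at a summit 2879 bp into the gene, a ratio of 0.391 (0.180 to 0.802). FOSL1, which encodes FRA-1 (chr11:65659520-65668044, minus strand), had 36 and 18 fragments in its intron near the start, a ratio of 0.423 (0.226 to 0.765). FOSL2, which encodes FRA-2 (chr2:28615315-28640184), had 25 and 16 fragments and a ratio of 0.542 (0.270 to 1.06), with summits 885 bp apart. The interval lay below 1 for FOSB and FOSL1 and reached past 1 for FOS and FOSL2.

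At the JUN family and ATF3, SREBP2 signal was also lower with XY018, with ratios from 0.513 to 0.821. JUN (chr1:59242517-59249720, minus strand) had the weakest SREBP2 signal of the members with vehicle, with 16 fragments against 12 with XY018, a ratio of 0.635 (0.274 to 1.43). JUNB, whose protein often opposes JUN (chr19:12902300-12904129), had 33 and 20 fragments and a ratio of 0.513 (0.279 to 0.921). JUND (chr19:18390504-18392432, minus strand) had 33 and 32 fragments, the ratio nearest to 1 at 0.821 (0.489 to 1.38). From the deposited fold the ratio was 1.48, in the opposite direction. Its region ran over 2083 bp with vehicle and 2227 bp with XY018, and the summits lay 1277 bp apart within it. ATF3 (chr1:212738676-212794119), a stress-induced factor that pairs with JUN proteins, had 44 and 31 fragments in the region over its MANE start, a ratio of 0.597 (0.364 to 0.966). Its summits lay at 165 bp with vehicle and 607 bp with XY018.

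Over the 8 members the median SREBP2 ratio was 0.566, and summed over them the fragments numbered 236 with vehicle and 157 with XY018, a ratio of 0.563 (0.457 to 0.692). The ratio was below 1 at 8 of 8 member promoters, where 98.0% of all 12337 promoters called in both lists were below 1. Signal was lower past 1.5-fold at 7 of 8, JUND being the exception, against 62.5% of all promoters. This count depended on the scaling: it was 6 of 8 per tag (44.8% of all), 4 of 8 by the deposited fold (46.6%) and 1 of 8, FOSB, after division by the median of all promoters (7.72%). No member was higher past 1.5-fold, against 0.0567% of all. The median of all promoters was 0.621, and 6 of 8 members lay under it. The lower SREBP2 signal at AP-1 genes was close in size to that at promoters in general, and once divided by the median of all promoters the members' median was 0.911.

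**Figure D2:**
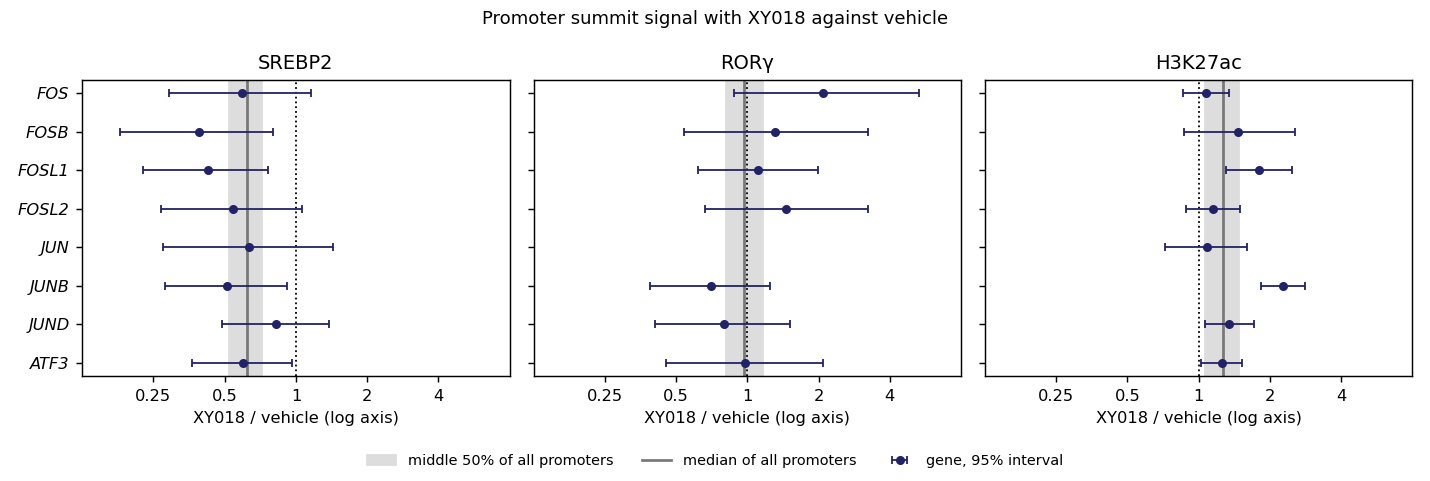
XY018 to vehicle ratio of promoter summit signal (x axis, log scale) for each AP-1 gene, with exact conditional 95% intervals from fragment numbers. The grey line and band are the median and the middle 50% of all promoters called in both lists (0.621 for SREBP2, 0.967 for RORγ, 1.27 for H3K27ac), and the dotted line is 1. The grey band holds 4 of 8 members in SREBP2, 2 of 7 in RORγ and 6 of 8 in H3K27ac. FOSB, FOSL1 and JUNB lie to its left and JUND to its right in SREBP2. FOS, FOSL2 and FOSB lie to its right and JUNB and JUND to its left in RORγ, and JUNB and FOSL1 lie to its right in H3K27ac.

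RORγ signal at these promoters was on both sides of 1. The highest ratio was at FOS, with 9 fragments with vehicle and 17 with XY018, a ratio of 2.09 (0.880 to 5.32). FOSL2 had 13 and 17 fragments (1.45, 0.661 to 3.24), FOSB 11 and 13 (1.31, 0.540 to 3.22) and FOSL1 26 and 26 (1.11, 0.617 to 1.98). At ATF3 there were 17 and 15 fragments (0.975, 0.454 to 2.08). At JUND there were 25 and 18 (0.796, 0.409 to 1.52), and at JUNB 33 and 21 (0.703, 0.387 to 1.25), although the JUNB summits lay 729 bp apart. The JUNB vehicle region also overlapped a promoter window of HOOK2. With these pairs all 4 FOS family genes were above 1 and all 3 other genes with a call were below it, but every interval included 1. The split depended on the pair: a second FOSL2 promoter region, at 184 bp, had 13 and 10 fragments (0.85, 0.334 to 2.1). The FOSB pair lay 2820 bp into the gene, and the FOSB promoter region at -426 bp, with 13 fragments, was called with vehicle alone.

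The median RORγ ratio of the 7 genes was 1.11 against 0.967 for 11311 promoters. FOS alone was higher past 1.5-fold, against 7.36% of all promoters, and no member was lower past 1.5-fold, against 9.52%. By the deposited fold JUNB was lower past it, at 0.528, where 16.4% of all promoters were. Summed over members, 134 fragments with vehicle and 127 with XY018 gave a ratio of 1.05 (0.815 to 1.35). Genes above and below 1 offset each other in this sum, so it does not show that single promoters did not change.

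H3K27ac signal was strong at most AP-1 promoters. ATF3 had 187 fragments with vehicle and 213 with XY018, FOS 166 and 162, JUND 128 and 157, and FOSL2 115 and 121. FOSL1 had 66 and 108, JUN 54 and 53, and FOSB 26 and 35. With vehicle, ATF3 stood at percentile 94.4 of all promoters with a call and FOS at percentile 90.8, whereas FOSB stood at percentile 23.1. The Poisson intervals of FOS (142 to 193) and FOSB (17.0 to 38.1) did not overlap, although both genes belong to the same family and both had SREBP2 and RORγ calls.

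JUNB stood out for the length of its acetylated chromatin. With vehicle, a region of 8615 bp upstream of the gene, summit at -1717 bp with 205 fragments, was separated from a region of 5011 bp over the gene with 133 fragments. With XY018 a single region of 14225 bp (chr19:12892120-12906344) covered both, with 274 fragments at -1732 bp. The gene itself is 1830 bp long. The vehicle region over it also overlapped a promoter window of HOOK2, so its signal cannot be assigned to JUNB alone. The ratio computed from the promoter pair was 2.26 (1.83 to 2.80), but it set the upstream summit of the XY018 library against the gene's own summit in the vehicle library. Compared at the upstream summit in both libraries, an alternative chosen after these values were seen, the ratio was 1.46 (1.22 to 1.76).

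FOSL1 was the other member past 1.5-fold, at 1.79 (1.31 to 2.47), with summits 633 bp apart. It was 1.35 by the deposited fold and 1.41 after division by the median of all promoters, both short of 1.5-fold. The ratio was 1.34 (1.06 to 1.71) at JUND, again with summits apart, by 1034 bp, and 1.25 (1.02 to 1.53) at ATF3. It was 1.47 (0.863 to 2.55) at FOSB, 1.15 (0.886 to 1.5) at FOSL2, 1.08 (0.722 to 1.60) at JUN and 1.07 (0.856 to 1.34) at FOS, intervals that included 1. The FOS summits lay 1289 bp apart, so the FOS value, like that of JUND, compares different positions. All 8 ratios were above 1, as were 80.5% of 12881 promoters, and after division by the median of all promoters 4 of 8 were. The count past 1.5-fold was 2 of 8, or 1 of 8 with JUNB compared at the upstream summit, against 22.7% of all promoters. It was 1 of 8, JUNB, by the deposited fold (27.8% of all) and after division by the median (3.99%). Both of these counts used the JUNB promoter pair with unlike summits and were not recomputed at the upstream summit. No member was lower past 1.5-fold, against 3.07%. The members' median of 1.30 was close to the 1.27 of all promoters.

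The gene and 20 kb either side, 430 kb in all, held many regions beyond the promoters. There were 79 SREBP2 regions in the vehicle library and 58 in the XY018 library, 77 and 59 for RORγ, and 94 and 95 for H3K27ac. The whole lists differed in length too, with 117441 and 69700 regions for SREBP2, 167264 and 129954 for RORγ, and 95099 and 105371 for H3K27ac. Fewer factor regions with XY018 are therefore not particular to these genes. Of the 79 SREBP2 vehicle regions, 12 lay at the members' own promoters, 14 at promoters of neighbouring genes and 53 elsewhere. The neighbours with promoters inside these spans were ERCC1, PPM1N and RTN2 beside FOSB, C11orf68, CCDC85B, CTSW, DRAP1, EFEMP2 and FIBP beside FOSL1, HOOK2, PRDX2, RNASEH2A and THSD8 beside JUNB, IQCN beside JUND and GARIN4 beside ATF3. FOS, FOSL2 and JUN had none, so all their regions lay away from promoters of other protein-coding genes. Promoters of non-coding genes were not examined here or below. A region here need not act on the gene it lies near.

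Regions were unevenly spread over the members. JUNB had 3.83 SREBP2 vehicle regions per 10 kb and JUND 3.34, while ATF3, with the longest span, had 0.419. The median over all protein-coding genes was 0.549 (middle 50% from 0.222 to 1.38). In H3K27ac, JUNB had 55.2% of its span covered with vehicle and 62.2% with XY018, FOS 39.2% and 41.0%, JUN 7.87% and 6.60%, and ATF3 5.33% and 7.43%. JUN and ATF3 therefore had little acetylation outside the sites at their starts, apart from the distal ATF3 site.

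**Figure D3:**
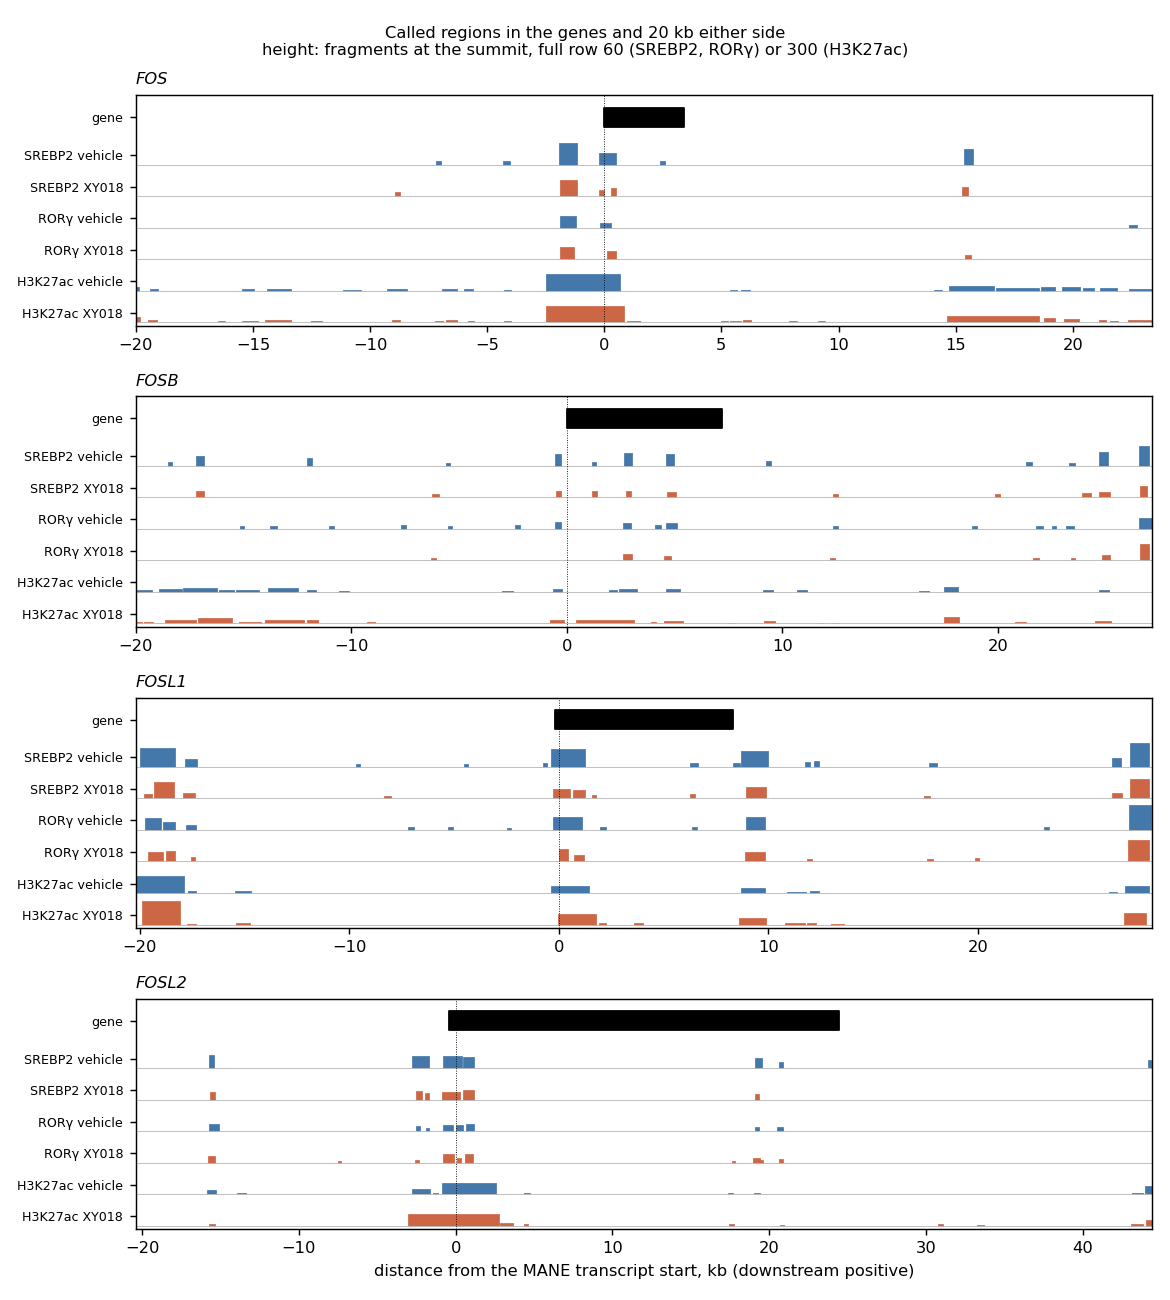
Called regions in FOS, FOSB, FOSL1 and FOSL2 and 20 kb either side (x axis, kb from the MANE start, downstream to the right), 1 row per library, with bar height proportional to fragments at the summit up to 60 for SREBP2 and RORγ and 300 for H3K27ac. FOS shows the block of 3173 bp of H3K27ac with SREBP2 and RORγ at -1424 bp, while FOSB has low acetylation in both libraries.

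At FOS the strongest SREBP2 site was not at the promoter but at the upstream site printed above, with 43 fragments with vehicle and 33 with XY018. The same site had 24 and 25 RORγ fragments, and it lay inside the H3K27ac region of 3173 bp (166 fragments) with vehicle and of 3350 bp (162 fragments) with XY018. At the downstream site with the CArG box, 31 SREBP2 fragments with vehicle and 18 with XY018 gave a ratio of 0.492 (0.259 to 0.907). RORγ was called there with XY018 alone, with 8 fragments, and H3K27ac with 52 and 65 fragments. The H3K27ac region there ran over 1894 bp with vehicle and 3918 bp with XY018.

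FOSB carried a row of weaker sites just upstream of the gene and within it. Its SREBP2 summits upstream at -442 bp and in coding exons at 2879 bp and 4736 bp had 23, 26 and 23 fragments with vehicle and 13, 12 and 11 with XY018. Their ratios were 0.479 (0.223 to 0.985), 0.391 (0.180 to 0.802) and 0.405 (0.178 to 0.865), all with intervals below 1. The remaining site, in an intron at 1241 bp, went the other way with 8 and 13 fragments, a ratio of 1.38 (0.529 to 3.83) whose interval included 1. RORγ fragments at the 2 sites in coding exons were 11 and 11 with vehicle and 13 and 9 with XY018. The RORγ region that overlapped the site at -442 bp, with 13 fragments, was called with vehicle alone.

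FOSL2 had 4 SREBP2 sites from -15605 bp to 982 bp, each called in all 6 lists, with 26, 24, 25 and 21 fragments with vehicle and 15, 17, 16 and 20 with XY018. At the first of them H3K27ac went the other way from its promoter, with 42 fragments with vehicle and 19 with XY018, a ratio of 0.496 (0.272 to 0.871). The promoter region of FOSL2 in H3K27ac ran over 3464 bp with vehicle and 5777 bp with XY018, where it took in a separate vehicle region with 53 fragments.

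**Figure D4:**
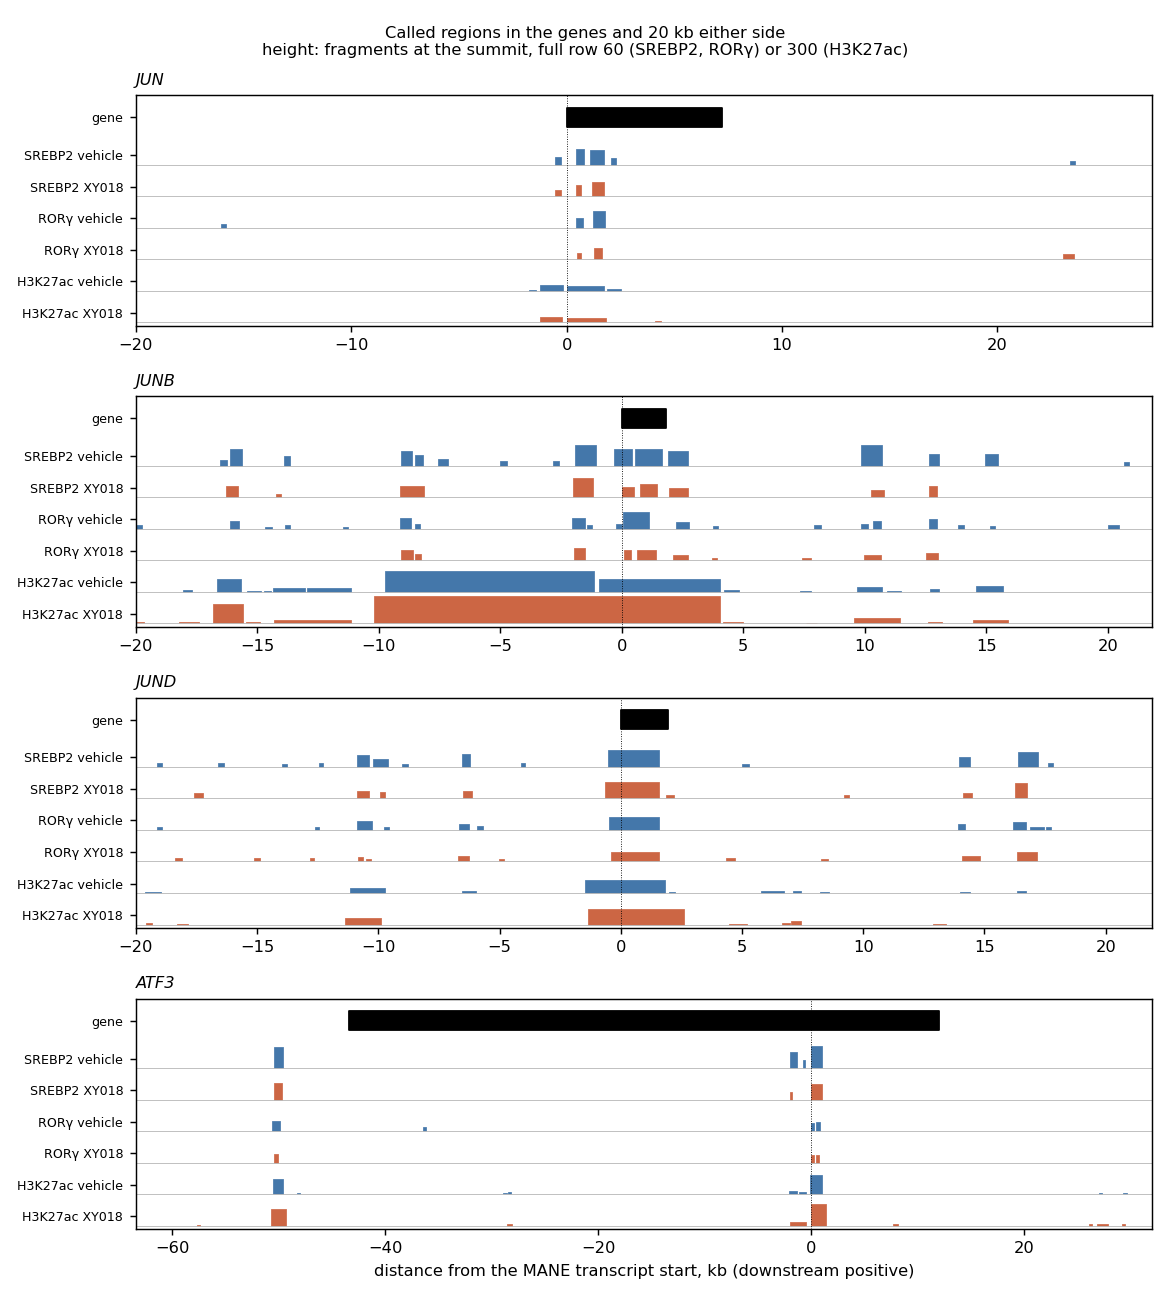
Called regions in JUN, JUNB, JUND and ATF3 and 20 kb either side, drawn as for the FOS family. JUNB shows the region of 14225 bp of H3K27ac with XY018 where vehicle has 2 regions, and ATF3 shows its distal site at -50246 bp and its MANE start with a nearly empty span between them.

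At JUN the 2 sites inside the transcribed sequence were stronger than the promoter site. They lay at 597 bp in the 5′ UTR, with 31 and 22 SREBP2 fragments, and at 1396 bp in the coding exon, with 30 and 29. JUN has no intron. The H3K27ac fragments there were 51 and 44, beside 54 and 53 in the promoter region.

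At JUNB the number of SREBP2 regions was 16 in the vehicle and 9 in the XY018 library, and that of RORγ regions 20 and 10. Both whole lists were also shorter with XY018, at 117441 and 69700 regions for SREBP2 and 167264 and 129954 for RORγ. The strongest SREBP2 site outside other promoters, at -1668 bp within HOOK2, had 41 SREBP2 fragments with vehicle and 38 with XY018. RORγ had 21 and 24 there. By contrast, the site at the PRDX2 and THSD8 promoters, 10522 bp downstream of the JUNB start, had 41 and 15 SREBP2 fragments, the lowest ratio of any kept site at 0.310 (0.159 to 0.572). The site with 3 AP-1 elements had 21 SREBP2 fragments with vehicle and lay in a region with 23 with XY018. It had 9 and 13 RORγ fragments and lay under the long H3K27ac region in both libraries.

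JUND had an SREBP2 region of 2083 bp and a RORγ region of 2058 bp with vehicle, which covered its start and most of the gene but not its 3′ end. Elsewhere its sites were mostly weak, with a median of 8 SREBP2 fragments over its 14 regions with vehicle. Of these 14 regions, 6 were kept with XY018, where 39.8% of all SREBP2 vehicle regions were kept. At 16560 bp, within IQCN, a site held 30 and 31 SREBP2 fragments, a ratio of 0.875 (0.512 to 1.5), and 15 and 18 RORγ fragments.

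ATF3 had 4 SREBP2 regions with vehicle. Its distal site at -50246 bp, upstream of the gene's most distant start, had 42 fragments with vehicle and 33 with XY018, 20 and 17 in RORγ and 147 and 165 in H3K27ac. The SREBP2 and RORγ values were close to those at its MANE start, whereas H3K27ac was lower than the 187 and 213 fragments there. A site between them at -1873 bp, with no RORγ call, had 32 and 16 SREBP2 fragments, a ratio of 0.423 (0.217 to 0.795). RORγ at the start was called as 2 regions, with summits at 131 and 658 bp.

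Of the 79 SREBP2 vehicle regions, 45 were kept with XY018, which is 57.0% (45.3 to 68.1%), against 39.8% of all SREBP2 vehicle regions. Here and below, the regions of the whole library were not matched to these for strength or for share at promoters. Own promoters kept 10 of 12, other promoters 11 of 14 and the remaining sites 24 of 53, which is 45.3% (31.6 to 59.6%). The lost regions were weak, with a median of 8 fragments and at most 24, whereas the kept ones had a median of 26. RORγ kept 42 of 77 regions, 54.5% (42.8 to 65.9%) against 36.4%, with a median of 14.5 fragments in kept and 6 in lost regions. H3K27ac kept 75 of 94, 79.8% (70.2 to 87.4%) against 69.3%, and all 13 of its own-promoter regions. The 11 SREBP2 regions called with XY018 alone held 5 to 10 fragments each.

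At the 45 kept SREBP2 sites the signal was lower with XY018 at 43, where 94.2% of all kept SREBP2 regions were lower. The median ratio was 0.582, against 0.616 for all 46730. The 10 own-promoter sites had a median of 0.566 and the 35 others 0.582. At the 42 kept RORγ sites 22 were lower, against 43.8% of all kept RORγ regions, and the median was 0.984 against 1.11.

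**Figure D5:**
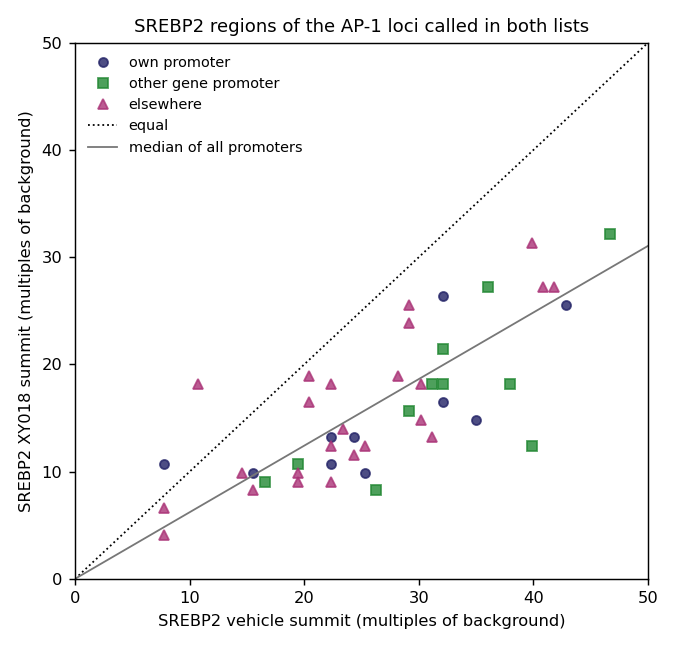
SREBP2 summit signal with vehicle (x axis) and with XY018 (y axis), both in multiples of the background, at the 45 sites of the AP-1 genes and flanks called in both lists. Circles are the members' own promoters, squares other promoters and triangles other sites. All but 2 sites lie below the dotted line of equality, and they scatter around the grey line, the median ratio of all promoters (0.621).

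The share of SREBP2 sites at AP-1 genes that overlapped RORγ was near that of the whole library, while the share that overlapped H3K27ac was higher. Of the 79 vehicle regions, 44 overlapped a RORγ vehicle region, 55.7% (44.1 to 66.9%) against 49.0% of all SREBP2 vehicle regions. The overlapping sites were stronger, with a median of 25 fragments against 8. With H3K27ac, 56 overlapped, 70.9% (59.6 to 80.6%) against 27.3%. Both whole-library shares cover all regions, unmatched for strength or for share at promoters. In all, 27 of the 79 sites were called in all 6 lists, 7 of them at own promoters and 14 away from any promoter of a protein-coding gene. Among the 77 RORγ vehicle regions, all 10 at own promoters overlapped both SREBP2 and H3K27ac.

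The sequence under these sites was rich in G and C. GC content within 100 bp of the SREBP2 vehicle promoter summits ranged from 66.7 to 77.6% over the 8 members, around the median of 74.6% for all promoters with a call. A GC box lay there in 7 of 8 members, all but FOSL1, and in 69.9% of all such promoters. Matches to the sterol regulatory element (TCACNCCAC), the ROR half-site (AGGTCA), the AP-1 site, the cyclic AMP response element, the CCAAT box (CCAAT) and the CArG box were found in 0 of 8 at these vehicle summits. Among all promoters these were present in 0.670%, 5.37%, 0.867%, 0.627%, 8.32% and 0.268%. At the SREBP2 summits with XY018 the cyclic AMP response element and the CArG box were each matched in 1 of 8 members, against 0.484% and 0.191% of all promoters. Both strands were searched, and none of these patterns contains another.

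Over all 79 SREBP2 vehicle sites the sterol regulatory element was matched at 2, at FOS -4155 bp and FOSB 9335 bp, with 8 and 9 fragments. That is 2.53% of sites, against 2.42% of all SREBP2 vehicle regions. The AP-1 site was matched at 3 sites, 3.80% against 1.95%, at FOSB -11942 bp, JUN 23503 bp and JUNB -8414 bp. GC boxes lay in 46 sites, 58.2% against 30.1%, and the ROR half-site in 9, 11.4% against 17.1%. The regions of the whole library were not matched to these sites for strength or for share at promoters. In the 250 bases before the MANE starts, CCAAT boxes were found at JUN, JUNB and JUND and at no FOS family gene or ATF3, against 34.3% of 18878 promoters. The cyclic AMP response element was found at JUND alone, against 2.44%.

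Over the 6 promoter values, on the log2 scale relative to background, FOS and FOSL2 were the closest pair of members (distance 0.87), and FOSB and ATF3 were the farthest apart (4.15). Over the 9311 genes with a region in all 6 libraries, the nearest to FOS was ID2 (distance 0.42), to FOSB TLL1 (0.29), to FOSL1 PCYT2 (0.35) and to FOSL2 MND1 (0.21). It was RXRA (0.44) for JUNB, DENND1A (0.26) for JUND and DHRS12 (0.25) for ATF3. The median distance ranged from 1.98 for JUND to 3.08 for FOSB, and with 1 library per group the spread of these distances is unknown.

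Genes around the AP-1 pathway were read the same way, from lists chosen with earlier results of these data known. Among 14 dimer partners, SREBP2 was lower past 1.5-fold at 8 of 10 promoters called in both lists, against 62.5% of all promoters, with a median ratio of 0.603. Their ratios ran from ATF4, a stress response partner with 33 and 14 fragments (0.359, 0.178 to 0.690), to MAF with 54 and 48 (0.753, 0.499 to 1.13). Of 12 upstream kinases and factors, 10 were lower, with a median of 0.522, from ELK1, a partner of serum response factor with 20 and 9 fragments (0.381, 0.153 to 0.875), to the JNK gene MAPK8 with 18 and 21 (0.988, 0.501 to 1.97). Other immediate early genes were lower at 7 of 12, with a median of 0.615, from EGR1 with 35 and 14 fragments (0.339, 0.168 to 0.646) to IER5 with 13 and 17 (1.11, 0.506 to 2.48). Of 13 AP-1 targets, 5 had SREBP2 calls in both lists and 4 of these were lower. The lowest was CD44, a cell adhesion receptor with 16 and 5 fragments (0.265, 0.0758 to 0.756), and the highest VEGFA, an angiogenic factor with 51 and 44 (0.731, 0.477 to 1.12).

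In H3K27ac the medians of these lists were 1.52, 1.55, 1.27 and 1.46 in the same order, beside 1.27 for all promoters. Signal was higher past 1.5-fold at 5 of 10, 7 of 12, 3 of 11 and 3 of 7 promoters, against 22.7% of all. EGR1 had an H3K27ac ratio of 0.991 beside its lower SREBP2 signal. Well known SREBP2 targets served as controls: the SREBP2 ratio was 0.712 (0.447 to 1.13) at INSIG1 and 0.529 (0.136 to 1.83) at HMGCS1. With vehicle, the ATF3 promoter had as many SREBP2 fragments (44) as that of INSIG1 (44).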

How the data were processed

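ChIP-seq libraries of HCC70 cells were compared as 6 groups of 1 library, as the labels' antibody and treatment give them. The 6 input samples were not analysed here. According to the methods of the study, tags were aligned to hg19 with BWA, and only uniquely placed, deduplicated tags were used. The submitters' processing notes name Bowtie2 instead, with MACS2 2.1.0. Each deposited list held the regions of 1 library. The authors' fold, a ratio of the summit pileup plus 1 to the local background plus 1, was deposited with −log10 p and −log10 q values. The deposited score repeated the −log10 p and was not used. No q threshold was applied at the main setting, so the lists include weak calls. An example is a FOSB region with a −log10 q of 0.611 and 5 SREBP2 fragments with vehicle. With 117441 SREBP2 and 167264 RORγ regions with vehicle, the lists are longer than the high-confidence sets that the study reports. The H3K27ac lists are subsets of longer ones, as region numbers up to 245055 show, by a selection rule not given in the sources used here.

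Fold and −log10 p were inverted under a Poisson model to whole fragments at each summit. This succeeded for every region but 1, within 5% of a step in −log10 p, and was tested on simulated data. Fragments were scaled by the modal background of the library. The GENCODE 44 annotation lifted to GRCh37, the build of hg19, gave genes on chromosomes 1 to 22 and X. A promoter ratio used the overlapping pair of regions with the highest summed signal. Regions overlapped with at least 1 bp in common. Shares have exact (Clopper-Pearson) binomial intervals and ratios exact conditional intervals, and no p-value was computed. PECAM1 was not among the protein-coding genes of the annotation. A blood marker, a control gene and some site sequences are not reported here.

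The members, context lists, elements and named genes were chosen with earlier results of these data known. Named genes were the members, for each member in all 6 lists its nearest gene by Euclidean distance, the highest and lowest SREBP2 ratio of each context list with at least 20 fragments in both libraries together, and the controls. Alternatives were stricter q values, other windows, flanks, overlaps and list lengths, and other scalings. Analyses used Python 3, numpy, pandas and scipy.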

Additional observations from a re-analysis of the deposited data

How the results depend on the processing

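With 1 library per group, no replicate could be left out. No paired analysis was possible because each group has 1 library. When the summit itself had to lie in the promoter window, the members with a promoter region numbered 5 for SREBP2 vehicle and 5 for SREBP2 XY018. They numbered 5 for RORγ vehicle, 4 for RORγ XY018, 5 for H3K27ac vehicle and 5 for H3K27ac XY018. These counts, and those at stricter q values, have no share of all genes beside them. At q of at most 1e-05 SREBP2 XY018 had 5 members with a promoter region. At that threshold the regions within the genes and flanks numbered 49 and 31 for SREBP2 and 35 and 33 for RORγ (vehicle, XY018). With flanks of 10 kb they numbered 50 for SREBP2 vehicle, 45 and 39 for RORγ and 49 and 52 for H3K27ac. With flanks of 50 kb they numbered 171 and 101 for SREBP2, 166 and 141 for RORγ and 182 and 193 for H3K27ac. Narrower or wider flanks change these counts by construction. The kept share was 70.0% for SREBP2 with lists of equal length and 80.0% for RORγ at q of at most 1e-05, where SREBP2 kept 63.3%. At the main setting the shares were 57.0% for SREBP2 and 54.5% for RORγ. Their intervals overlapped, so they set no order of the factors. Overlap of SREBP2 with H3K27ac was 80.9% at q of at most 0.01 and 95.9% at 1e-05. Divided by the median of all promoters, the median ratio was 0.911 for SREBP2 and 1.02 for H3K27ac, and the H3K27ac ratio turned below 1 at ATF3 (0.98), FOS (0.84), JUN (0.845) and FOSL2 (0.905). The members lower past 1.5-fold in SREBP2 then numbered 1, and those higher in H3K27ac 1. By the deposited fold these numbered 4 and 1, and 1 member was lower in RORγ. Both H3K27ac counts of 1 rested on the JUNB pair with unlike summits. With the deposited fold the H3K27ac median was 1.28, and JUND SREBP2 was 1.48. Except where a setting itself explains the change, the cause was not tested. Compared at the highest summit under overlapping regions, an alternative chosen after seeing the data, the JUNB H3K27ac ratio was 1.46, which left 1 member higher past 1.5-fold. Of the 246 values recomputed, 206 moved by less than 1.5 times (counts) or stayed in their counting interval (shares and ratios). Depth limits what single genes can show: the interval of every RORγ ratio of a member included 1, which does not show that these promoters did not change.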
